A study of Mus musculus with 23 samples.

Results

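Bub1b and 7 other genes of the spindle assembly checkpoint (Bub1, Bub3, Mad1l1, Mad2l1, Mad2l1bp, Ttk and Cdc20) were followed across 2 tissues of wild-type mice and of mice with mutant Bub1b alleles. The 8 genes were chosen by name, as the core of the pathway in which the protein of Bub1b, BubR1, acts, and all 8 were among the 24062 gene symbols of the count table. RNA was sequenced from gastrocnemius, a hind limb muscle, and from fat, given in the labels as IAT without the abbreviation spelled out. WT mice were wild type, HH mice carried a pair of hypomorphic (H) Bub1b alleles, which make less BubR1 than the normal allele, and HL1002P mice carried 1 H allele and 1 allele with the missense change L1002P. All mice were 8 to 10 months old and of mixed 129Sve/C57BL/6 background, so both mutants carry an H allele and no group carries L1002P alone. There were 4 libraries of each genotype in fat, and 4 WT, 4 HL1002P and 3 HH libraries in muscle. The labels do not say whether each library is a different mouse, so the p-values below measure the spread between these libraries.

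The checkpoint holds back the separation of chromosomes until every kinetochore is attached to the spindle. The kinases Ttk (also called Mps1) and Bub1 act at kinetochores that are not attached, Mad1l1 and Bub3 help to assemble the signal there, and Mad2l1 and BubR1 bind Cdc20, the activator of the anaphase-promoting complex (APC/C), in an inhibitor called the mitotic checkpoint complex. Mad2l1bp (p31comet) helps to take that complex apart. Several of these genes are switched on mainly in dividing cells, whereas mature muscle fibres and fat cells do not divide.

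The position of the missense change is shown because it separates the mutant groups. Bub1b lies on chromosome 2 (mm10, 118598202 to 118641592, plus strand), and codon 1002 of its 1052 codons lies in the last of 23 exons, at chr2:118641164-118641166. The reference allele reads as follows, with codon 1002 in capitals and 4 codons on each side.
Bub1b codon 1002: acagtgtctgttCTGggggagctggca
The counts do not separate the alleles, so the levels given for HL1002P are the sum over both alleles.

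Library totals were 34.1 to 55.3 M counts in muscle and 22.6 to 58.8 M in fat. Low counts were mostly even: 69.5% of the values from 1 to 10 were even, against 49.8% of those from 51 to 100, and whether low counts, such as those of Bub1 in muscle, stand for fewer independent molecules than reads was not tested. Muscle fibre genes summed to at least 124919 CPM (counts scaled to library size, TMM-normalised within a tissue) in every muscle library and fat cell genes to at least 6369 CPM in every fat library. Of the fat libraries, 3 also held over 5000 CPM of muscle fibre genes: WT replicate 3 (13500 CPM), HL1002P replicate 4 (5120 CPM) and HH replicate 1 (12856 CPM). The last 2 of these are also the mutant fat libraries with the lowest levels of Bub1b, Bub1, Ttk, Cdc20 and Mad2l1 in their groups. Of the fat libraries, 2 of 4 in WT and 1 of 4 in each mutant carried Xist rather than Y-linked transcripts, HL1002P replicate 4 being the one of its group; with sex as a covariate the number of checkpoint genes called in fat was still 4 in HL1002P and 1 in HH.

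Bub1b, the mutated gene, was lower in both mutants than in WT in muscle, where its level was low in all groups. WT muscle had 0.952, 0.871, 0.726 and 0.768 CPM (43, 50, 28 and 33 counts). HL1002P muscle had 0.202, 0.181, 0.187 and 0.273 CPM (7, 8, 8 and 15 counts). HH muscle had 0.326, 0.338 and 0.520 CPM (14, 17 and 24 counts). The 3 genotypes did not overlap: every HL1002P library lay below every HH library, and every HH library below every WT library. In edgeR's quasi-likelihood test, with p adjusted by Benjamini-Hochberg over all 14580 genes tested in muscle, Bub1b fell in HL1002P, with a log2 fold change against WT of −1.96 ± 0.32 (SE; adjusted p = 0.0498), to 0.258 of the WT level. Its log2 difference of −1.07 ± 0.33 in HH did not pass the test (unadjusted p = 0.00723, adjusted p = 0.147), and neither did that of −0.89 ± 0.35 between HL1002P and HH (unadjusted p = 0.0242, adjusted p = 0.988).

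The call in HL1002P muscle lies just under the threshold and was lost when any 1 of its 8 libraries was left out (log2 fold change −2.12 to −1.88, adjusted p 0.0775 to 0.164). It was also lost with the replicate number as a block (−1.97, edgeR adjusted p = 0.0871). Deviations of same-numbered libraries correlated at r = 0.106 to 0.344 in this comparison, which cannot show that equal numbers are pairs.

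**Figure D1:**
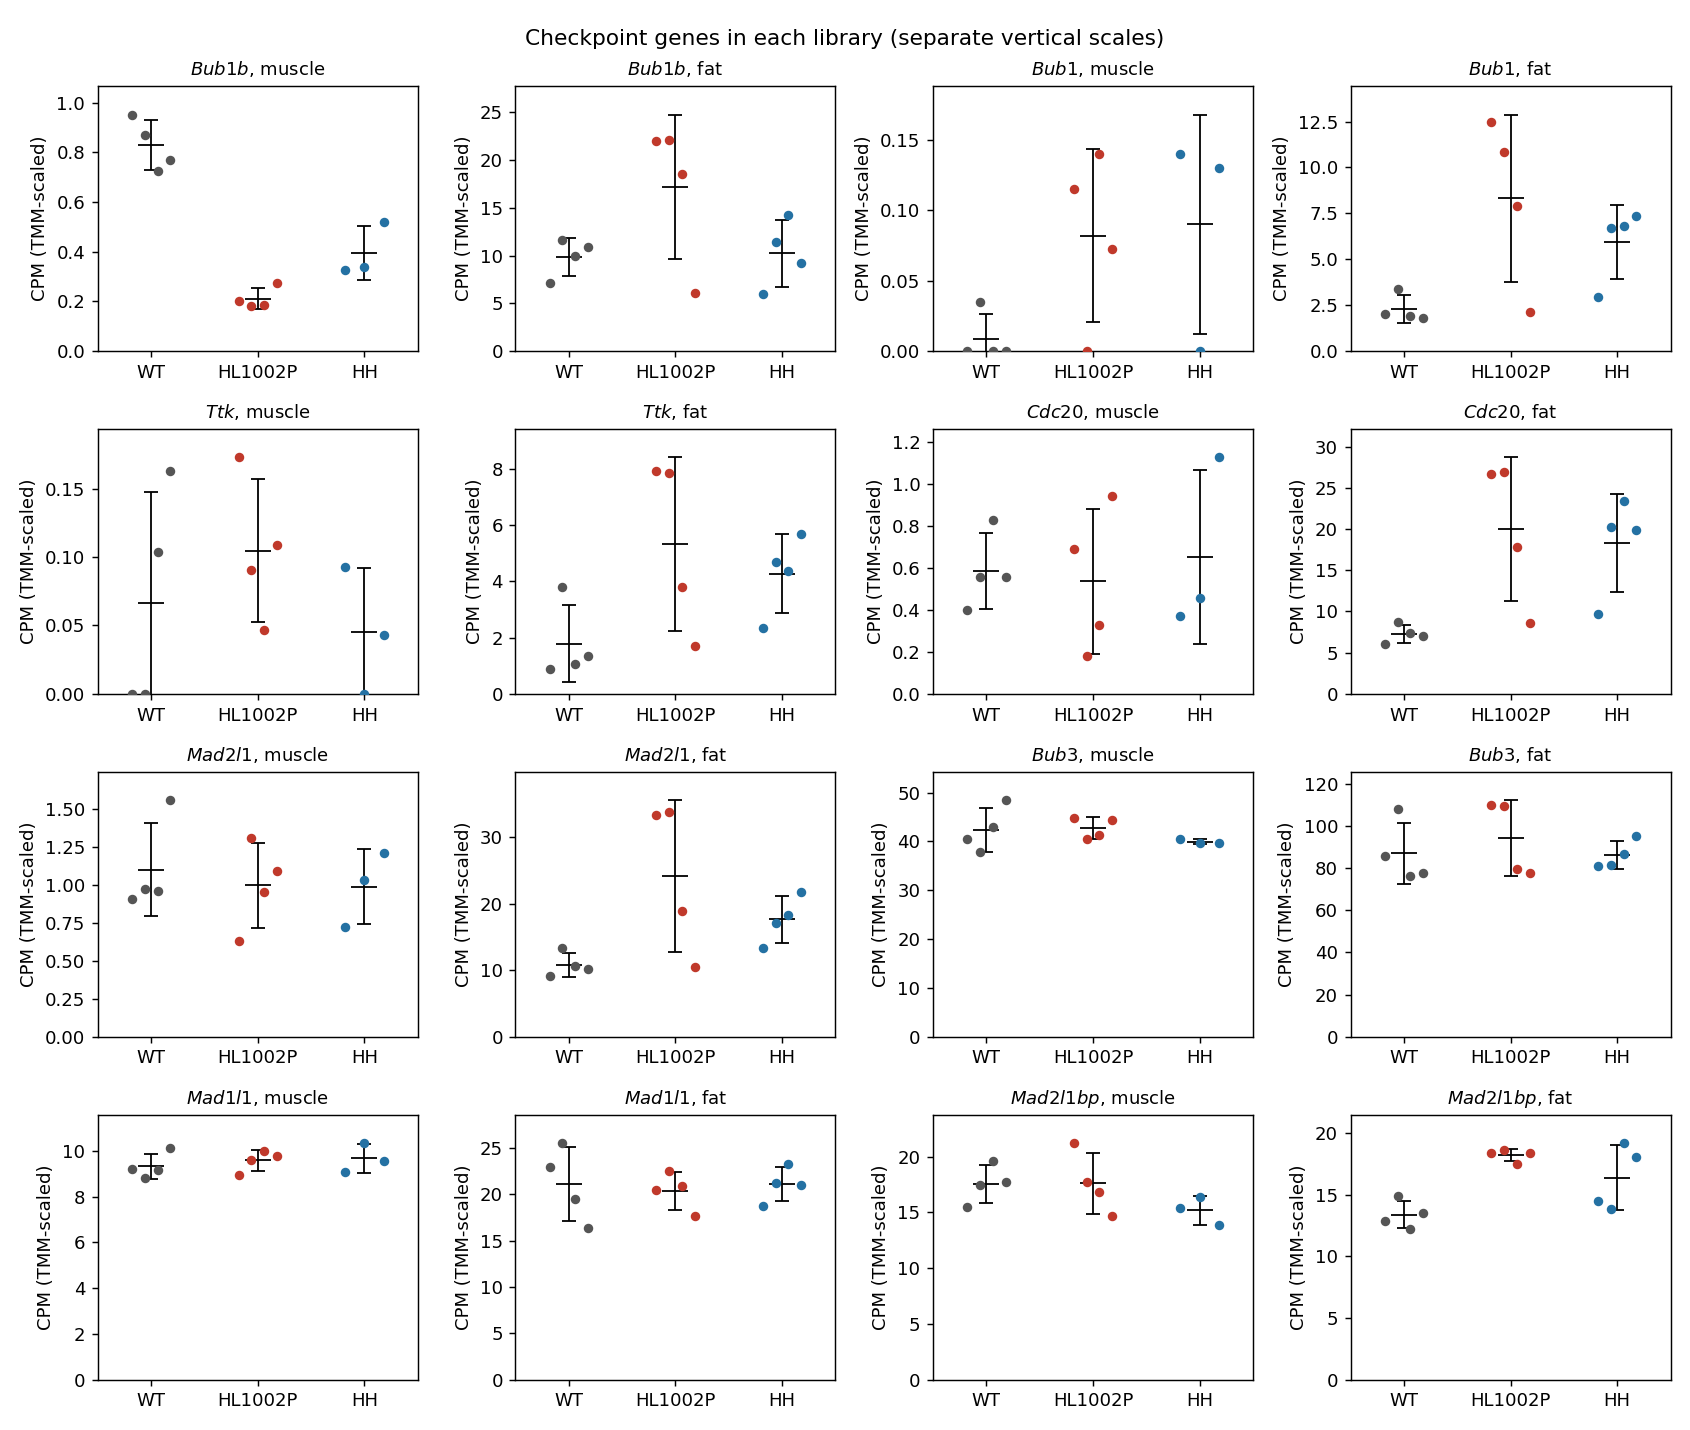
Level of each checkpoint gene in every library (points), in CPM scaled within each tissue, with the group mean and SD (bars); each panel is 1 gene in 1 tissue and has its own vertical scale. Bub1b in muscle is the panel in which the 3 genotypes do not overlap, and in fat the lowest HL1002P and HH points of Bub1b, Bub1, Ttk, Cdc20 and Mad2l1 are HL1002P replicate 4 and HH replicate 1.

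In fat, Bub1b was more abundant and was not lower in the mutants. WT fat had 7.08, 11.6, 9.91 and 10.9 CPM. HL1002P fat had 22.02, 22.1, 18.6 and 6.12 CPM. HH fat had 5.96, 11.4, 14.3 and 9.25 CPM. Of the HL1002P libraries, 3 lay above every WT library and replicate 4 lay below every one. HH replicate 1 lay below and HH replicate 3 above every WT library, while the other HH libraries lay within the WT range. The log2 fold change was 0.80 ± 0.38 in HL1002P (edgeR adjusted p = 0.118) and 0.05 ± 0.38 in HH (adjusted p = 0.932), and neither passed the test. Without HL1002P replicate 4 the value was 1.14 (adjusted p = 0.00989), and without all 3 fat libraries with muscle fibre genes, a choice made after seeing the data, it was 1.08 (adjusted p = 0.00712).

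The change of Bub1b in HL1002P differed between the tissues. In 1 edgeR fit of all 23 libraries, the log2 fold change in muscle minus that in fat was −2.78 ± 0.49 (adjusted p = 0.0106). The fit takes the libraries as independent; the labels do not say whether muscle and fat libraries came from the same mice. Bub1b was the only 1 of the 8 genes to pass, 4 having an unadjusted p under 0.05, while 11.3% of all 16863 genes tested passed. For HH the difference between tissues was −1.14 ± 0.50 (adjusted p = 0.171); none of the 8 genes passed in edgeR, 2 having an unadjusted p under 0.05, against 3.71% of all genes. DESeq2 called 4 of the 8 genes for HL1002P and 1 for HH, and limma's voom called none for HL1002P.

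Since Bub1b is a gene of dividing cells, its level was also expressed per library relative to 12 other mitotic genes (Mki67, Top2a, Cdk1, cyclins and others), as log2 CPM of Bub1b minus their mean log2 CPM. On this scale Bub1b was lower in both mutants in both tissues. In fat the values were −0.03, −0.12, 0.48 and 0.80 in WT, −0.61, −0.57, −0.24 and −0.37 in HL1002P, and −0.75, −0.91, −0.71 and −1.24 in HH. In muscle they were 1.60, 0.99, 1.59 and 1.10 in WT, −1.34, −0.93, −1.04 and −1.01 in HL1002P, and −0.03, 0.23 and −0.28 in HH. The reference genes were themselves low in WT muscle, with means of 0.580 CPM for Mki67, 0.403 for Top2a and 0.238 for Cdk1, against 9.06 for Tpx2. Of the 12, 11 had enough counts to be tested in muscle, so the relative level there rests on few reads. Within each tissue no genotype overlapped another, and the order of the mutants was reversed: HL1002P was lowest in muscle and HH was lowest in fat.

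The mean difference of this relative level from WT was −2.40 ± 0.18 (SE) for HL1002P and −1.35 ± 0.22 for HH in muscle, and −0.73 ± 0.23 and −1.19 ± 0.25 in fat. HL1002P minus HH was −1.05 ± 0.17 in muscle and 0.46 ± 0.15 in fat. In each of the 6 comparisons the 2-sided exact permutation p was 0.0286 (also 0.0286 after adjustment over the 6), which is the smallest p these group sizes allow. These calls depend on the reference genes in both tissues. In fat the difference from WT relative to 16 kinetochore genes was −0.10 in HL1002P (exact permutation test, adjusted p = 0.657) and −0.62 in HH (adjusted p = 0.0857), and relative to 15 replication genes −0.36 (adjusted p = 0.114) and −0.83 (adjusted p = 0.0571). In muscle it was −1.85 and −1.23 relative to the kinetochore genes (adjusted p = 0.0857 for both in the exact permutation test) and −2.07 and −1.29 relative to the replication genes (adjusted p = 0.0571 for both), with every unadjusted exact p of these 4 still at 0.0286. The call in HL1002P fat was also lost when any 1 HL1002P library was left out (exact permutation test, adjusted p 0.0571 to 0.0857), and that of HL1002P against HH fat without HH replicate 4, HL1002P replicate 3 or HL1002P replicate 4 (adjusted p = 0.0571). In muscle, with any 1 library left out, neither HH against WT nor HL1002P against HH passed (exact permutation test, adjusted p 0.0667 to 0.1), with groups too small to reach the threshold.

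**Figure D2:**
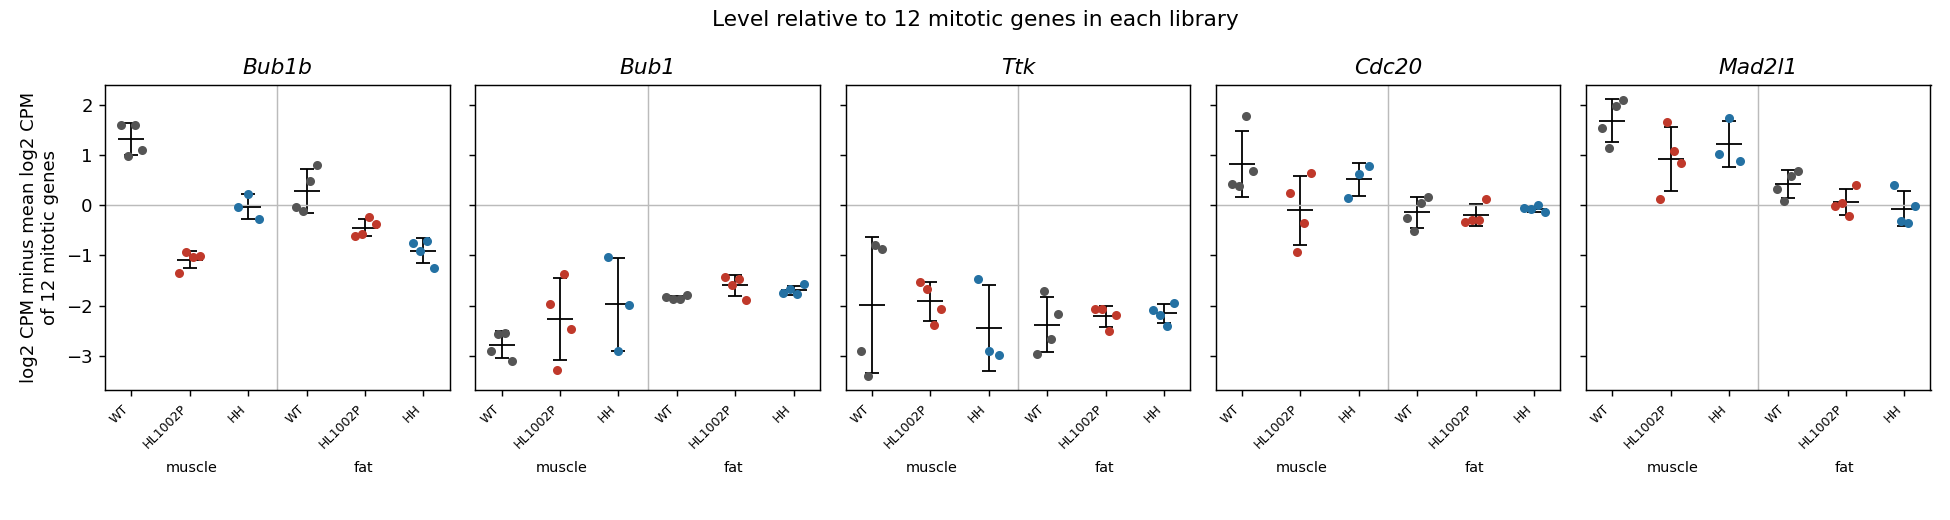
Level of 5 checkpoint genes relative to 12 mitotic genes in each library: log2 CPM of the gene minus the mean log2 CPM of the 12 genes (points), with the group mean and SD (bars), for muscle left of the vertical line and fat right of it. Bub1b in WT lies above both mutants in both tissues, while Bub1, Ttk and Cdc20 show no such step in fat. Mad2l1 was lower on average in mutant fat (−0.36 in HL1002P and −0.49 in HH). Bub3, Mad1l1 and Mad2l1bp are not shown and were also lower in the fat of both mutants.

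The other genes did not show this drop alike. Given as a description with no test, the mean difference from WT fat on the same scale was 0.24 in HL1002P and 0.15 in HH for Bub1, 0.17 and 0.22 for Ttk, and −0.06 and 0.07 for Cdc20. For Mad2l1 it was −0.36 and −0.49. For Bub3 it was −1.28 and −1.19, for Mad1l1 −1.42 and −1.17, and for Mad2l1bp −0.94 and −0.91. In muscle, HL1002P and HH differed from WT by −0.92 and −0.30 for Cdc20, −0.76 and −0.48 for Mad2l1, and −0.62 and −0.54 for Mad2l1bp. For Bub3 the muscle values were −0.60 and −0.41, for Mad1l1 −0.58 and −0.28, for Bub1 0.51 and 0.80, and for Ttk 0.08 and −0.45. A lower value on this scale was thus not particular to Bub1b in either tissue. In muscle the differences of Bub1b were larger (−2.40 and −1.35). In fat they were −0.73 and −1.19, so Bub3, Mad1l1 and Mad2l1bp were lower by more in HL1002P. In HH fat, Bub3 and Mad1l1 were lower by about as much as Bub1b. Of the 12 reference genes, 11 rose in HL1002P fat and 5 in HH fat, while Bub3 and Mad1l1 did not pass the test in either.

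Bub1, Ttk, Cdc20 and Mad2l1, genes known from dividing cells, had higher mean levels in the fat of both mutants. Their promoters are shown because these genes and Bub1b varied together over the fat libraries. The sequences are the 150 bases before the RefSeq start (GRCm38.p6), on the strand of the gene. Capitals mark the CCAAT box, read as ATTGG on the other strand, which binds NF-Y, and the cell cycle homology region (CHR; spelled TTTGAA, or with the variant spellings TTTAAA and also TTCGAA, on either strand), an element known from promoters of mitotic genes.
Bub1b, chr2:118598061-118598210, plus strand: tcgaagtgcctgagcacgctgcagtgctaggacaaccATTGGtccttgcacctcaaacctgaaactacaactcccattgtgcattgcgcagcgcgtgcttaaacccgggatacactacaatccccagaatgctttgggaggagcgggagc
Bub1, chr2:127831860-127832009, minus strand: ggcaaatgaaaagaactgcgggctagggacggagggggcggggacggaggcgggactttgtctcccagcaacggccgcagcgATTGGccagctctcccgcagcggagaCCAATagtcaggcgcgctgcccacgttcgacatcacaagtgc
Ttk, chr9:83834539-83834688, plus strand: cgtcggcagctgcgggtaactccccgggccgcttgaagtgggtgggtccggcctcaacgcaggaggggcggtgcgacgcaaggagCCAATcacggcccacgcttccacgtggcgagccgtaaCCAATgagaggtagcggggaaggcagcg
Cdc20, chr4:118437344-118437493, minus strand: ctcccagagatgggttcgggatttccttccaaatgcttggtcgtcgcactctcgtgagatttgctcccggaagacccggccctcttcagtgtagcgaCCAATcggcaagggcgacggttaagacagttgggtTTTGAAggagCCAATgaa
Mad2l1, chr6:66535071-66535220, plus strand: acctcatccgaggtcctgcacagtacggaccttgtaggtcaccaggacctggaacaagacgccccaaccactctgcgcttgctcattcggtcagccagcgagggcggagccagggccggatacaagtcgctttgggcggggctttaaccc
Just after the start, 3 of these genes hold a CHR match, shown in capitals.
Bub1b, 32 to 50 bases after the start, chr2:118598242-118598260: gacgttaaaTTTGAAactt
Bub1, 6 to 29 bases after the start, chr2:127831831-127831854: cgcggggaaTTCGAAtcgccggcg
Ttk, 1 to 22 bases after the start, chr9:83834689-83834710: gggaaatTTCAAAcgtgtttcc

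In windows from 250 bases before to 50 after the start, available for all 8 genes, Bub1, Ttk, Cdc20 and Bub3 each held 2 CCAAT boxes and 1 CHR match. Bub1b held 1 CCAAT box and 2 CHR matches, and Mad2l1, Mad1l1 and Mad2l1bp held neither. Of all 32851 such windows, 37.4% held a CCAAT box, 11.7% held 2 or more and 28.8% held a CHR match. The E2F site spelled TTTCGCGC or TTTGGCGC, present in 0.813% of windows, was in none of the 8. A match is only a description of the letters: Mad2l1 holds neither motif, whereas Bub3 holds both.

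Bub1, a kinase of the checkpoint, was at a low level in WT fat and higher in HL1002P. WT fat had 1.99, 3.40, 1.91 and 1.79 CPM. HL1002P fat had 12.5, 10.8, 7.89 and 2.11 CPM, and HH fat had 2.97, 6.70, 6.80 and 7.37 CPM. The lowest library of each mutant lay within the WT range, and the other 3 of each lay above it. Bub1 rose in HL1002P by a log2 fold change of 1.87 ± 0.49 (edgeR adjusted p = 0.0183); the value in HH, 1.39 ± 0.48, did not pass (adjusted p = 0.0604).

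Cdc20 was the 1 gene that rose in both mutants. WT fat had 6.02, 8.75, 7.36 and 7.005 CPM. HL1002P fat had 26.7, 26.9, 17.8 and 8.64 CPM, and HH fat had 9.69, 20.3, 23.4 and 19.9 CPM. HH did not overlap WT, and HL1002P overlapped it by replicate 4 alone. The log2 fold changes were 1.46 ± 0.35 in HL1002P (edgeR adjusted p = 0.0145) and 1.33 ± 0.35 in HH (adjusted p = 0.026). The HH call was lost without HH replicate 2 (1.30), HH replicate 3 (1.24), WT replicate 1 (1.27) or WT replicate 4 (1.31), with adjusted p from 0.0521 to 0.0797. Cdc20 overlaps the neighbouring gene Elovl1 on the opposite strand by 53 bases, and with a kit that does not keep the strand the reads there cannot be told apart.

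Mad2l1, the checkpoint protein that closes on Cdc20, had 9.10, 13.3, 10.6 and 10.1 CPM in WT fat. HL1002P fat had 33.3, 33.7, 18.9 and 10.5 CPM, and HH fat had 13.3, 17.2, 18.3 and 21.7 CPM. Its HL1002P replicates 1, 2 and 3 and all HH libraries lay above the WT range, the lowest HH library by little. Mad2l1 rose in HL1002P by 1.16 ± 0.32 (edgeR adjusted p = 0.0224), and its value of 0.71 ± 0.32 in HH did not pass (adjusted p = 0.123).

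Ttk had the lowest level per kilobase of the 8 genes in each fat group. WT fat had 0.885, 3.81, 1.07 and 1.37 CPM, HL1002P fat had 7.94, 7.85, 3.80 and 1.70 CPM, and HH fat had 2.35, 4.68, 4.38 and 5.68 CPM. WT replicate 2 stood well above the other WT libraries and inside the range of both mutants. Neither difference passed in edgeR: 1.58 ± 0.57 in HL1002P (adjusted p = 0.0537) and 1.26 ± 0.57 in HH (adjusted p = 0.122). The value in HL1002P lies just outside the threshold and passed with DESeq2 (1.59, adjusted p = 0.017), limma's voom (1.73, adjusted p = 0.038) and a filter of at least 1 CPM on average (1.62, edgeR adjusted p = 0.0459). It also passed without HL1002P replicate 4 (1.94, edgeR adjusted p = 0.0147) and without the 3 libraries with muscle fibre genes (1.69, adjusted p = 0.031). Without WT replicate 2 the differences were 2.28 (edgeR adjusted p = 0.0259) and 1.97 (adjusted p = 0.0461).

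Of the 3 remaining genes, Mad2l1bp rose slightly in HL1002P fat. WT fat had 12.9, 14.9, 12.3 and 13.5 CPM, HL1002P fat had 18.4, 18.6, 17.5 and 18.4 CPM, and HH fat had 14.5, 13.9, 19.2 and 18.04 CPM. All HL1002P libraries, replicate 4 included, lay above every WT library. The log2 fold change was 0.45 ± 0.13 (edgeR adjusted p = 0.0285), and 0.29 ± 0.13 in HH did not pass (adjusted p = 0.126). The HL1002P call was lost without the 3 libraries with muscle fibre genes (0.40, adjusted p = 0.0641). Bub3, which carries Bub1 and BubR1 to kinetochores, ranged from 76.5 to 108 CPM in WT fat, 77.5 to 110.0 in HL1002P and 81.2 to 95.3 in HH, with log2 differences of 0.11 ± 0.15 and −0.01 ± 0.15. Mad1l1, the kinetochore partner of Mad2l1, ranged from 16.4 to 25.5, 17.6 to 22.5 and 18.8 to 23.3 CPM, with differences of −0.05 ± 0.15 and 0.00 ± 0.15. Bub3 and Mad1l1 overlap other gene models, on the opposite strand for both and for Mad1l1 on the same strand too. These are overlaps of whole genes, introns included. Whether exons overlap, and whether some reads of Bub3 and Mad1l1 belong to those models, was not tested.

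In all, 4 of the 8 genes were higher in HL1002P fat (Bub1, Cdc20, Mad2l1 and Mad2l1bp), none was lower, and 5 had an unadjusted p under 0.05; of all 16266 genes tested in fat, 31.8% changed, 17.3% being higher and 14.5% lower. In HH fat 1 of 8 was higher and none lower, with 5 at an unadjusted p under 0.05, against 20.8% of all genes changed, 12.3% being higher and 8.59% lower. The median log2 difference of the 8 genes was 0.98 in HL1002P and 0.50 in HH, against −0.07 and −0.06 over all genes. Both comparisons share the WT libraries. With HL1002P replicate 1, HL1002P replicate 2 or WT replicate 1 left out, Cdc20 alone of the 8 genes passed in HL1002P, and 2023, 2111 and 2332 of all genes passed, against 5167 with all libraries. Without HL1002P replicate 4, 6 of the 8 and 7018 of all genes passed. Without HL1002P replicate 3 or WT replicate 2, only 2448 and 3116 of all genes passed, yet none of the 4 genes lost its call. The counts of checkpoint genes and of all genes thus did not always move together.

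**Figure D3:**
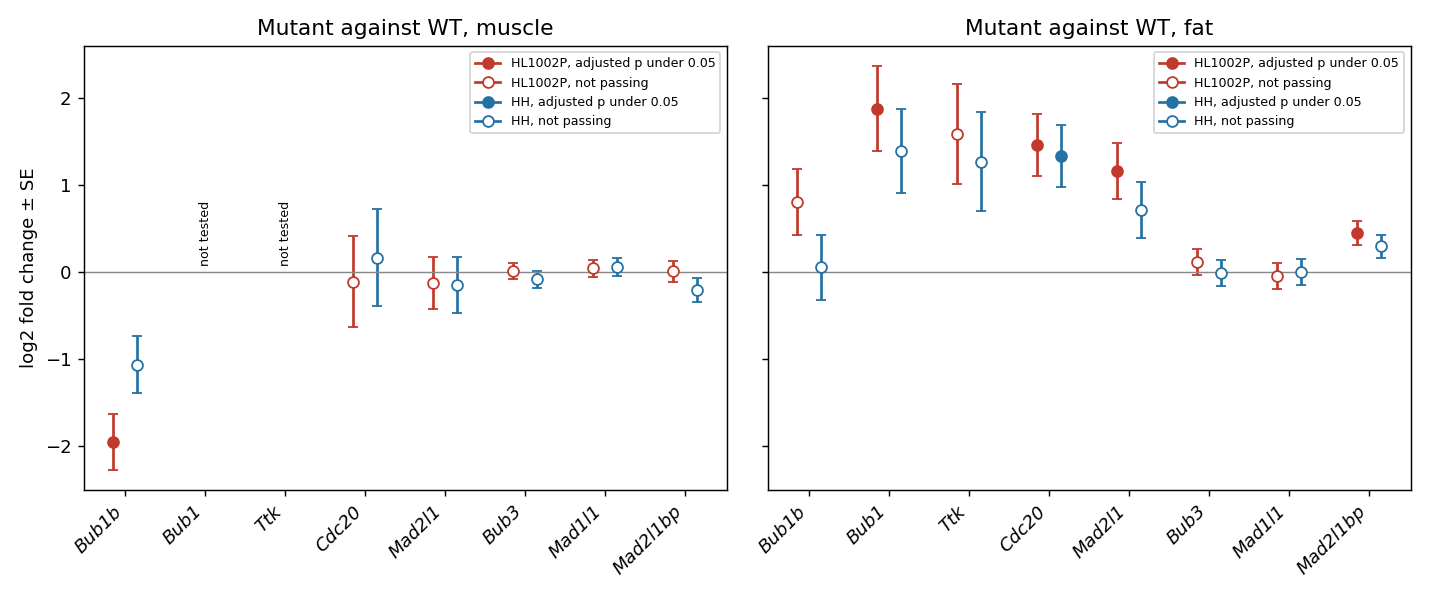
Log2 fold change of each checkpoint gene in HL1002P and in HH against WT, with its SE, in muscle (left) and fat (right); filled points have an adjusted p under 0.05 over all genes. Bub1b in HL1002P is the one filled point in muscle, and in fat Bub1, Cdc20, Mad2l1 and Mad2l1bp are filled for HL1002P and Cdc20 for HH.

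HL1002P and HH were not told apart by any of the 8 genes in fat: none passed edgeR's test and none had an unadjusted p under 0.05, while 0% of all genes passed and DESeq2 called 20 genes. The difference of Bub1b was 0.75 ± 0.38, higher in HL1002P (edgeR unadjusted p = 0.0707), and those of Bub1, Mad2l1, Ttk and Cdc20 were 0.48 ± 0.47, 0.45 ± 0.32, 0.32 ± 0.56 and 0.13 ± 0.35. The errors of Bub1, Ttk and Cdc20 are about as large as their differences or larger.

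In muscle, Bub1b stood alone among the checkpoint genes. Of the 6 genes tested, 1 was lower in HL1002P, where 0.0412% of all genes were lower and 0.117% changed in either direction. In HH none of 6 passed in edgeR (1 with an unadjusted p under 0.05, Bub1b; 0.377% of all genes), and in HL1002P against HH none passed (1 with an unadjusted p under 0.05, again Bub1b; 0.0206% of all genes). Bub1 and Ttk had too few counts to be tested there. Bub1 had no count in 3 WT muscle libraries and 2 counts in the other, 0 to 6 in HL1002P and 0 to 6 in HH; Ttk had 0 to 7, 2 to 6 and 0 to 4.

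Cdc20 in muscle had 0.398, 0.557, 0.830 and 0.558 CPM in WT, 0.691, 0.181, 0.327 and 0.945 in HL1002P, and 0.372, 0.457 and 1.13 in HH. The libraries of the 3 genotypes were mixed, with log2 differences from WT of −0.12 ± 0.52 and 0.16 ± 0.56. Mad2l1 had 0.907 to 1.56 CPM in WT, 0.634 to 1.31 in HL1002P and 0.722 to 1.21 in HH, with differences of −0.13 ± 0.30 and −0.15 ± 0.32. Bub3, Mad1l1 and Mad2l1bp differed from WT by −0.21 to 0.05 on the log2 scale in either mutant. The errors of Bub3 (0.09 and 0.10) and Mad1l1 (0.10 and 0.11) were small, whereas those of Cdc20 were larger than its differences.

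Between WT muscle and WT fat, 5 of the 8 genes were lower in muscle and 1 was higher, while 73.5% of all genes differed, 41.6% being lower and 31.9% higher. TMM scaling over all libraries was used in the fit; scaling by library totals alone, added after seeing the data, moved the median of all genes by −1.17 on the log2 scale, so both values are given. Bub1b was lower in muscle by −2.32 ± 0.34 with TMM and −3.49 ± 0.37 with totals, Mad2l1 by −2.04 ± 0.32 and −3.21 ± 0.33, and Cdc20 by −2.39 ± 0.46 and −3.55 ± 0.49. Mad2l1bp was higher in muscle under both (1.64 ± 0.12 and 0.47 ± 0.13). Bub3 did not differ past the test with TMM (0.21 ± 0.13, edgeR adjusted p = 0.14) but turned to −0.95 ± 0.11 with totals, and Mad1l1 went from 0.07 ± 0.12 to −1.08 ± 0.11, so no direction can be given for either.

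Bub1 and Ttk were also lower in muscle, on few counts. WT muscle had 2 Bub1 counts in all against 382 in WT fat, a ratio of 84 with TMM over all libraries (95% interval 14.9 to 3340, with counts taken in pairs since most low counts were even) and of 190 with library totals (33.7 to 7540). For Ttk the counts were 11 and 278, a ratio of 11.1 (4.57 to 28.3) with TMM and 25.1 (10.3 to 63.8) with totals. These intervals cover counting error only.

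Per kilobase of exon, a scale on which genes can be compared within a library, Bub3 was highest in WT fat at 19.4 CPM per kb. It was followed by Mad2l1bp (10.5), Mad1l1 (7.99), Cdc20 (4.06), Bub1b (2.69), Mad2l1 (1.34), Bub1 (0.664) and Ttk (0.615). The libraries overlapped between the neighbours Mad2l1bp and Mad1l1 and between Bub1 and Ttk, and not between the other neighbours. In WT muscle the order was Mad2l1bp (13.8 CPM per kb), Bub3 (9.47), Mad1l1 (3.53), Cdc20 (0.327), Bub1b (0.226), Mad2l1 (0.137), Ttk (0.0230) and Bub1 (0.00255), with overlap between Cdc20 and Bub1b and between Ttk and Bub1. The exon length used for Mad2l1, 8032 bases, covers every annotated isoform and lowers its per-kilobase level if a shorter one is made.

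Relative to Bub3, its binding partner, Bub1b stood at 2.39% of the Bub3 level per kilobase in WT muscle, 0.601% in HL1002P muscle and 1.21% in HH muscle. In fat the shares were 13.9%, 22.3% and 14.5%. These are levels of RNA, within a tissue and free of its scaling; they do not give the ratio of the proteins.

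Other messages also differed in fat, where 17.3% of all genes were higher and 14.5% lower in HL1002P, and 12.3% higher and 8.59% lower in HH. Of 10 B cell genes, 10 were higher in HL1002P fat and 9 in HH fat, and their summed level ranged from 25.03 to 625 CPM in WT, 1265 to 3629 in HL1002P and 1656 to 3227 in HH, with Cd79a the most abundant. Of 9 T cell genes, 9 and 7 were higher, and their sums were 83.7 to 287, 505 to 1031 and 486 to 1036 CPM. None of these genes was at 0 in all libraries of a fat group. Of 8 fat cell genes, 5 were lower in HL1002P fat and none in HH. Of 8 endothelial genes, 5 and 3 were lower, with sums of 1124 to 1656 CPM in WT, 707 to 1027 in HL1002P and 821 to 1088 in HH. Of 9 macrophage genes, 2 (22.2%) and 1 (11.1%) were higher, near the shares over all genes, and the median log2 differences of the list were −0.10 and 0.11. The macrophage sums were 1285 to 1522 CPM in WT, 1225 to 3337 in HL1002P and 1582 to 3454 in HH. None of 6 epithelial genes passed in either mutant, but their sums split the libraries: 1586 and 1507 CPM in WT replicates 3 and 4, 996 in HL1002P replicate 4, 674 and 441 in HH replicates 2 and 4, and 2.08 to 87.3 in the other 7. The part of these cells in the fat results was not tested.

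With the mean level of the B and T cell genes added to the edgeR fit as a covariate, none of the 8 checkpoint genes and none of the 16266 genes passed in either mutant, and the log2 value of Bub1b became −0.35 in HL1002P and −0.94 in HH. The summed marker level does not overlap between WT and the mutants, so the covariate and the genotype cannot be told apart, and the part of these cells in the result was not tested. In whole tissue, more cells of a type and more RNA per cell cannot be told apart either. In muscle the B cell genes summed to 0.441 to 2.49 CPM over WT libraries; macrophage genes were at 46.3 to 114 CPM in WT, 98.7 to 286 in HL1002P and 137 to 181 in HH, with none of 8 passing the test. Epithelial genes summed to 1.93 to 2.81 CPM in WT muscle, 7.54 to 157 in HL1002P and 10.8 to 49.3 in HH. All mutant libraries thus lay above all WT libraries, whereas for Bub1b all mutant libraries lay below all WT libraries. None of the 3 epithelial genes tested passed (Krt18, a keratin, at log2 5.66 ± 1.11 and 4.63 ± 1.11, edgeR adjusted p = 0.106 and 0.0803). Satellite cell genes summed to 105 to 156, 142 to 290 and 164 to 392.3 CPM, with none of 7 passing. Their part in the muscle results was not tested.

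**Figure D4:**
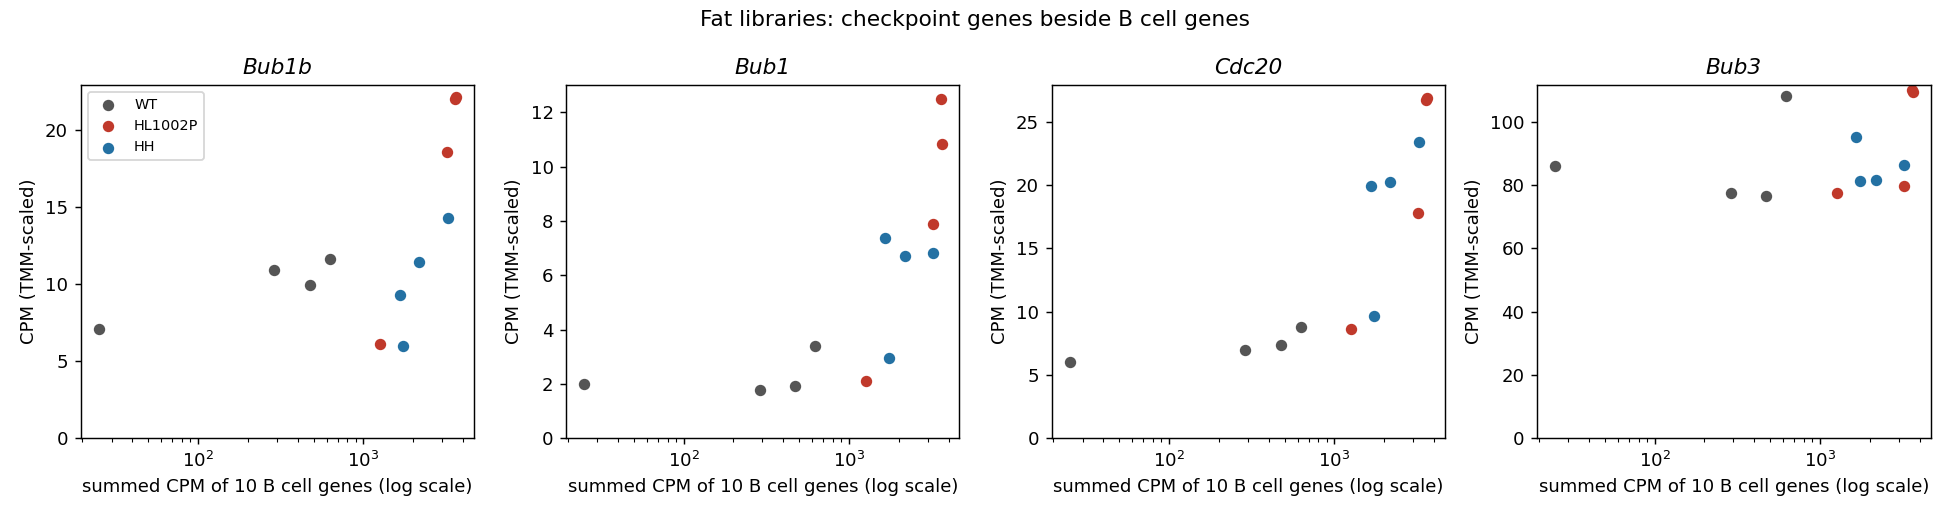
Level of Bub1b, Bub1, Cdc20 and Bub3 (CPM, vertical) against the summed CPM of 10 B cell genes (horizontal, log scale) in the 12 fat libraries, coloured by genotype. All WT libraries lie at 625 CPM of B cell genes or below and all mutant libraries at 1265 CPM or above, and within HL1002P the library with the least B cell RNA (replicate 4) has the lowest Bub1b, Bub1, Cdc20 and Bub3, whereas within HH the library with the least (replicate 4, 1656 CPM) has the highest Bub1 and Bub3.

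The genes around the checkpoint were followed as lists, each count to be read against the 31.8% of all genes that changed in HL1002P fat and the 20.8% in HH fat. Of 9 centromere kinases and their partners, 8 (88.9%) were higher in HL1002P fat and 4 (44.4%) in HH fat, none being lower. Gsg2 (haspin, a histone H3 kinase) was at 3.76 ± 0.67 CPM (SD, n = 4) in WT fat and rose to 9.87 ± 2.51 in HL1002P and 8.77 ± 1.55 in HH, log2 fold changes of 1.39 ± 0.24 and 1.22 ± 0.24 (edgeR adjusted p = 0.00775 and 0.0122). Incenp, the scaffold of the Aurora B complex, rose from 14.9 ± 3.31 to 31.1 ± 8.74 and 32.6 ± 8.70 CPM. The median log2 difference of the list was 1.39 in HL1002P and 1.13 in HH, against −0.07 and −0.06 over all genes.

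Of 16 kinetochore genes, which include the Rod, Zw10 and Zwilch complex that brings Mad1 and Mad2 to kinetochores, 10 were higher and 1 lower in HL1002P (68.8% changed), and 2 were higher and 1 lower in HH (18.8%, near the share over all genes). Ndc80, which binds microtubules, went up from 3.49 ± 0.74 CPM in WT to 10.6 ± 5.18 in HL1002P. Zw10 rose from 23.6 ± 2.14 to 33.2 ± 3.52 in HL1002P and 32.0 ± 2.30 in HH, and Kntc1 (Rod) from 2.79 ± 0.83 to 7.04 ± 2.64 in HH. The gene that was lower in both was Zwint (log2 −0.67 ± 0.23 and −0.69 ± 0.23), named after its value was seen.

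Of 13 regulators of the checkpoint, 2 were higher and 3 lower in HL1002P (38.5% changed), and 2 higher and 1 lower in HH (23.1%), shares near those over all genes. Trip13, the ATPase that works with the product of Mad2l1bp, rose from 1.94 ± 0.09 CPM in WT to 5.29 ± 1.93 in HL1002P and 4.25 ± 1.24 in HH (log2 1.45 ± 0.32 and 1.13 ± 0.31). Ppp2r5b, a member of the B56 family of phosphatase subunits that BubR1 binds, fell from 57.5 ± 10.0 to 30.9 ± 6.91 and 36.2 ± 7.05 CPM (log2 −0.90 ± 0.19 and −0.67 ± 0.19).

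Of 18 subunits and cofactors of the APC/C, the target of the checkpoint, 1 was higher and 3 were lower in each mutant (22.2% changed, below the share over all genes in HL1002P and near it in HH). Their median log2 differences were −0.14 and −0.12. The one that rose was Fbxo5 (Emi1), an inhibitor of the APC/C, from 5.37 ± 0.76 CPM to 13.4 ± 4.51 and 11.8 ± 1.96. The core subunits Anapc2, in HL1002P (log2 −0.40 ± 0.11), and Cdc27, in HH (−0.63 ± 0.15), fell.

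Of 6 genes that hold cyclins, securin, separase and Cdk1, 4 were higher in HL1002P fat and none lower, and in HH fat 1 was higher and 1 lower. Ccna2 (cyclin A2) rose from 6.60 ± 2.66 CPM to 22.7 ± 11.7 in HL1002P. Espl1 (separase) rose from 6.17 ± 0.80 to 15.2 ± 6.60 in HL1002P and 15.97 ± 4.92 in HH. Pttg1 (securin) fell in HH in both tissues, from 32.4 ± 5.92 to 1.45 ± 0.33 CPM in muscle (n = 4 and 3; log2 −4.48 ± 0.20, edgeR adjusted p = 3.88e-07) and from 26.6 ± 7.02 to 7.66 ± 1.76 CPM in fat (−1.80 ± 0.22, adjusted p = 0.00905). HL1002P muscle had 30.2 ± 2.70 CPM of it, so that Pttg1 was the 1 gene of these lists that passed in muscle, in HH against WT and in HL1002P against HH (4.37 ± 0.20).

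The 12 mitotic genes used as a reference above were higher in fat too, 11 in HL1002P and 5 in HH. Mki67 rose from 41.5 ± 13.6 CPM to 158 ± 87.2 and 134 ± 48.6, Birc5 rose from 5.91 ± 1.97 to 17.0 ± 7.29 in HL1002P, and Plk1 from 4.15 ± 1.36 to 11.4 ± 4.50 in HH. Of 15 replication genes, 11 and 7 were higher. Between HL1002P and HH in fat, none of the genes of any of these lists passed edgeR's test. Some genes, such as Ccna2, Birc5 and Plk1, stand in more than 1 of the lists.

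**Figure D5:**
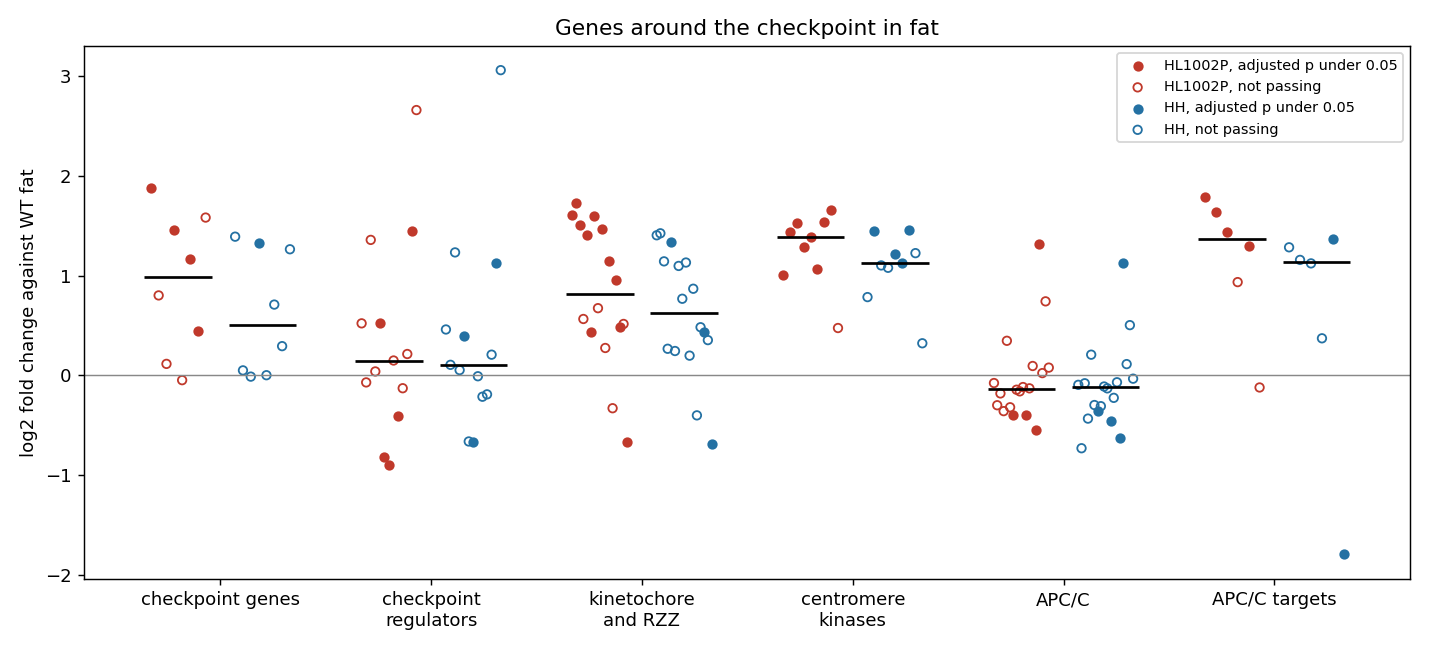
Log2 fold change against WT fat of each gene (points) in 6 lists around the checkpoint, for HL1002P and HH; filled points have an adjusted p under 0.05 and black lines are list medians. The centromere kinases have medians of 1.39 and 1.13 and the APC/C subunits medians of −0.14 and −0.12.

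Over the 12 fat libraries the other checkpoint genes followed Bub1b to different degrees. The correlation of log2 CPM with Bub1b (Pearson r) was 0.789 for Mad2l1, 0.777 for Bub1, 0.726 for Cdc20, 0.697 for Ttk, 0.561 for Bub3, 0.457 for Mad2l1bp and 0.345 for Mad1l1. Taken within genotypes, after removal of the group means, it was 0.951 for Cdc20, 0.907 for Bub1, 0.851 for Mad2l1 and 0.795 for Ttk, and 0.275 for Mad2l1bp. Among 14348 genes that averaged 1 CPM or more over the fat libraries, those most like Bub1b included Trdmt1 (0.941), Ibtk (0.908), Prpf18 (0.903), Nupl1 (0.887) and Actl6a (0.88). These correlations are a description over libraries that share genotype groups, the muscle fibre content and the lymphocyte content given above.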

How the data were processed

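The authors deposited raw read counts per gene symbol for 23 libraries in 1 table, 3605 of whose 24062 genes had no count. Per the submitters' processing notes, TopHat2 2.0.14, Bowtie2 2.2.6 and featureCounts 1.4.6 (Subread) were used with mm10; the annotation, strand setting and handling of reads with several matches are not given in the sources used here. Strand is not kept by the TruSeq kit that the labels name.

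Groups came from the labels. In R 4.3.3, edgeR 4.0.16 was run with TMM factors, filterByExpr and quasi-likelihood F tests, with 1 fit per tissue over its 3 genotypes and 1 fit of all 23 libraries for comparisons between tissues; a gene was called at a p under 0.05 after Benjamini-Hochberg adjustment over all genes tested. CPM is scaled by TMM within each tissue, and log2 CPM has a prior count of 2. Relative levels of Bub1b were compared by 2-sided exact permutation tests over libraries. Alternatives included limma 3.58.1 (voom), DESeq2 1.42.0, other size factors and filters, covariates, a replicate block and leaving out libraries; the procedure was tested on simulated data.

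Whether equal replicate numbers pair libraries was checked by the correlation over genes of their deviations from the group means. All pairs were above 0.1 in muscle for HL1002P against WT (r = 0.106 to 0.344) and against HH (0.327 to 0.379), so the block is given beside those results where it changes a call. For the other 4 comparisons it is given only among the settings at the end. Differently numbered libraries were not set beside these pairs, and equal numbers in muscle also share sex-linked transcripts, so the check cannot show that equal numbers are pairs. In muscle, replicates 1 and 2 of each genotype carried Y-linked transcripts and the others Xist; in fat, Xist was carried by 2 WT, 1 HL1002P and 1 HH library.

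The 8 genes and all lists were chosen with earlier results of these data known. All 8 genes were named; of each pathway list the up to 2 genes with the smallest p past the test in each comparison were named, and the 6 genes most correlated with Bub1b in fat, passing over predicted genes and clone names; 1 of these 6 is not reported here. Promoter sequences (GRCm38.p6) and the start and end of Bub1b are from RefSeq. The codon with its position, the gene overlaps and the exon lengths (union of exons) are from GENCODE vM21. That set is on the same assembly but need not be the one used for counting. Without molecular identifiers, counted reads are not independent molecules.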

Additional observations from a re-analysis of the deposited data

Results flagged for a closer look

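Of 40 groups of 4 libraries (8 genes in 5 groups), 5 held a library that stood apart from the other 3. The rule flags about 1 in 20 groups by chance if values are normally distributed. Low counts need not be, so the number flagged cannot be judged against that rate. For Bub1 in WT muscle the flag was fixed in advance, since any count beside 3 libraries at 0 stands apart. The 5 flagged groups were Bub1 in WT muscle (replicate 2 at 0.0348 CPM, the other 3 at 0), in WT fat (replicate 2, high at 3.40 CPM) and in HH fat (replicate 1, low at 2.97 CPM), Mad2l1 in WT muscle (replicate 4, high at 1.56 CPM), and Ttk in WT fat (replicate 2, high at 3.81 CPM). WT fat replicate 2 also had the most B cell RNA of the WT fat libraries (625 CPM) and the highest sum of the 12 mitotic genes (199.7 CPM), and HH fat replicate 1 held 12856 CPM of muscle fibre genes; their part in these values was not tested. The effect of HL1002P on Bub1b differed between tissues in the edgeR fit of all libraries, by −2.78 on the log2 scale (muscle minus fat).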

How the results depend on the processing

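In HL1002P against WT muscle, the number of checkpoint genes called went from 1 to 0 when the 2 groups were fitted alone (Bub1b −1.95), with voom (−1.92), with no filter (−1.96), with sex (−1.97) or macrophage genes (−2.07) as a covariate, with the replicate block (−1.97), and with counts halved (−1.88; added later). It was also 0 with a mean of at least 1 CPM, which Bub1b did not reach, and without any 1 library (0 to 0; Bub1b −2.12 to −1.88). The replicate block changed no other call of a checkpoint gene but Ttk in HL1002P fat, which passed (1.70, edgeR adjusted p = 0.0492), but took the genes called in HH muscle from 55 to 203. In HL1002P against WT fat and in HH against WT muscle, r was not above 0.1 for all same-numbered pairs (lowest r −0.365 and 0.0159), so the check gives no ground for a block there. In HL1002P against WT fat, the 4 calls became 0 with the lymphocyte covariate (Bub1b −0.35) and 1 to 6 without 1 library (Bub1b 0.66 to 1.14; relative level −0.86 to −0.56), and without the 3 fat libraries with muscle fibre genes Bub1b passed (1.08) and Ttk did (1.69) while Mad2l1bp failed (0.40); Ttk also passed with DESeq2 (1.59), voom (1.73) and a mean of at least 1 CPM (1.62). In HH against WT fat, 1 call became 3 with the groups alone, 2 with DESeq2, 0 with voom or the lymphocyte covariate, 3 without those 3 libraries, and 0 to 2 without 1 library. The sign of Bub1b there turned with voom (−0.033), lymphocytes (−0.94), sex (−0.085), or without HH replicate 3 (−0.11) or WT replicate 1 (−0.06), its range without 1 library being −0.11 to 0.27, and Ttk turned with lymphocytes (−0.0092). Mad2l1bp in HL1002P fat also failed without WT replicate 3 (0.40) or 4 (0.45), and Bub1 in HH fat passed without HH replicate 1 (1.64). Between tissues, the HL1002P effect had 4 calls with DESeq2, 0 with voom, 2 with library totals (Mad2l1 added) and 3 without HL1002P fat replicate 4 (1 to 3 over all), the HH effect had 1 with DESeq2, and Bub3 in WT muscle against fat turned to −0.95 with library totals and passed at 0.30 without WT fat replicate 2. The relative level of Bub1b kept its sign in all settings but lost its call with kinetochore genes as reference (muscle: HL1002P −1.85, HH −1.23, HL1002P minus HH −0.61; fat: −0.10, −0.62, 0.52), with replication genes (−2.07, −1.29, −0.79; −0.36, −0.83, 0.47) and, in fat, without the 3 libraries (−0.69, −1.17, 0.48), where the smallest p rises. Without 1 library it was −1.48 to −1.22 (HH muscle), −1.18 to −0.93 (HL1002P minus HH, muscle) and 0.34 to 0.52 (the same, fat). Over all genes, calls ranged over the settings other than leaving out 1 library from 6 to 188 (17 in the main analysis) for HL1002P muscle, 44 to 653 (55) for HH muscle, 2 to 41 (3) for HL1002P against HH muscle, 0 to 7305 (5167) for HL1002P fat, 0 to 5505 (3391) for HH fat, 0 to 20 (0) for HL1002P against HH fat, 1251 to 3170 (1905) and 273 to 1728 (625) for the differences between tissues, and 11075 to 14119 (12386) for WT muscle against WT fat. DESeq2 gave the highest count in all but HL1002P and HH fat and WT muscle against WT fat. Without 1 library they ranged from 3 to 13, 21 to 133, 3 to 7, 2023 to 7018, 829 to 4170, 0 to 0, 349 to 4048, 63 to 1361 and 11848 to 12264, in the same order, so the shares of all genes printed beside the checkpoint genes move with single libraries. Other than construction (fewer libraries, fewer genes), the causes were not tested. Depth limits Bub1 and Ttk in muscle, at 0 to 7 counts per library, and Bub1b there, at 7 to 50.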
